A study of Mus musculus with 12 samples.

Results

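Bile duct and ductular reaction genes were followed in the liver of mice by bulk RNA sequencing. The set held 8 genes chosen by name, *Krt7*, *Krt19*, *Krt23*, *Epcam*, *Sox9*, *Cftr*, *Cldn7* and *Prom1*, of 54532 genes in the expression table. The rule matched names and used no threshold on a measured value, although earlier results of these data were known when the names were chosen. All 8 were found, and 7 passed the filter on low values (0.1 FPKM as the mean of the 12 mice), with *Cftr* below it. The 12 animals were male C57BL/6J mice, 3 in each of 4 diet groups, and feeding started at 5 weeks of age and lasted 26 weeks. ND-fed mice received a normal diet, and control mice received a high-fat diet with nothing added, so that control here means fat-fed and not lean. HYA-treated mice received the same high-fat diet with 1% HYA, and LA-treated mice the same diet with 1% linoleic acid (LA). HYA is a hydroxylated product of LA, formed when lactic acid bacteria of the gut add water across a double bond, and the pair was given at the same dose for the same time. The comparison of control with ND mice addresses the effect of long-term fat feeding, and that of HYA or LA with control mice the effect of each fatty acid on top of it.

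Cholangiocytes are the epithelial cells that line the bile ducts, and they are a small minority beside hepatocytes in whole liver. In many forms of chronic liver injury, including fatty liver disease with fibrosis, small duct-like structures that carry biliary markers multiply at the edge of the portal tracts, which is called a ductular reaction, and hepatocytes under stress can also start to express some biliary genes. In RNA from whole liver, a change in the number of cells of a type and a change in RNA per cell cannot be told apart.

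The promoters of the 4 members called higher with fat feeding (control against ND mice) are shown because these genes carry that comparison. Each run is 300 bases of reference sequence from RefSeq (GRCm38.p6), 250 before and 50 after the transcription start, 5′ to 3′ on the strand of the gene, for *Krt23* (chr11:99493071-99493370, minus strand), *Epcam* (chr17:87635729-87636028, plus strand), *Cldn7* (chr11:69964529-69964828, plus strand) and *Prom1* (chr5:44101687-44101986, minus strand). Capitals mark matches, on either strand, to 7 short motifs that were searched: the TEAD core GGAATG, the SOX core ACAATG, the RBPJ core TGGGAA, the HNF1 half-site GTTAAT, the nuclear receptor half-site AGGTCA, the E-box CACGTG and the TATA box TATAAA.
Krt23: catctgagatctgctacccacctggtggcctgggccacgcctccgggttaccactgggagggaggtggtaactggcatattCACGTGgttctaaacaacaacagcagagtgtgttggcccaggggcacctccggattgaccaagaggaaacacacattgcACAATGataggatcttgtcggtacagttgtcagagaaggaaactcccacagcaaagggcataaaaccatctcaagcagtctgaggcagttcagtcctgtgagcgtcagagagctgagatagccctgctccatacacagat
Epcam: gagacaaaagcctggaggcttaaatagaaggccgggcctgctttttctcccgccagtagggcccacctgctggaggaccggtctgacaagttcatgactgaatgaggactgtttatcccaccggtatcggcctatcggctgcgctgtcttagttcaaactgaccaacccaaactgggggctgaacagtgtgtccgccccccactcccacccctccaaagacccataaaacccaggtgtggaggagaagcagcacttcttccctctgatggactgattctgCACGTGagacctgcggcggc
Cldn7: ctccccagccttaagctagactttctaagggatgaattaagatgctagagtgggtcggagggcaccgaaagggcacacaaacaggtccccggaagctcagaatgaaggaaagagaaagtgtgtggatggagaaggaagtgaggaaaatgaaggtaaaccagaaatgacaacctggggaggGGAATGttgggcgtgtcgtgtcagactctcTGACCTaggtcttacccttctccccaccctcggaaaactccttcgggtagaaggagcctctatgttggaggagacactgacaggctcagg
Prom1: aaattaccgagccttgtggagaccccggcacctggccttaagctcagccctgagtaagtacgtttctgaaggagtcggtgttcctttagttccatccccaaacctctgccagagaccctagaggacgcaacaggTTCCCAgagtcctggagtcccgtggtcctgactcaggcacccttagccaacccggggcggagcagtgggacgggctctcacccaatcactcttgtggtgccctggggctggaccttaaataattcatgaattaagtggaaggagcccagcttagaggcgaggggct

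The 4 windows shared no motif other than the E-box, which stood at position -169 in *Krt23* and at position 31 in *Epcam*, counted from the transcription start. That motif was present in 7.15% of the 32851 promoter windows of the same length. *Krt23* also held the SOX core at -90 (12.6% of windows), *Cldn7* the TEAD core at -70 (14.7%) and the nuclear receptor half-site on the reverse strand at -40 (16.3%), and *Prom1* the RBPJ core on the reverse strand at -116 (25.6%). Neither the HNF1 half-site (7.1% of windows) nor the TATA box (13.6%) was found in these windows, and a match or its absence is a description of the letters only. The *Prom1* window starts within the gene model of the files, and 296 bases separate its transcription start from the 5′ end of that model. Of the other members, the windows of *Krt7* and *Cftr* were also read, with the nuclear receptor half-site at position 16 in *Krt7* and no match in *Cftr*, and *Krt19* and *Sox9* were not in the promoter table. The transcription start of the *Krt7* window was 1360 bases from the 5′ end of its gene model.

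The levels below are FPKM, fragments scaled to the length of the gene model and by a factor of each library, as deposited by the authors. Fragment counts recovered from the steps between low values put 17169064 to 25220880 fragments on genes per mouse, with a median of 19610557. At this depth the members rested on few reads. *Krt23* had 18 to 365 fragments per mouse, *Sox9* 85 to 225, *Epcam* 27 to 123, *Prom1* 15 to 67, *Krt19* 21 to 52, *Krt7* 5 to 37, *Cldn7* 4 to 33 and *Cftr* 0 to 21. The fit by limma ran on log2(FPKM + 0.1) over all mice and all 17016 genes that passed the filter, a call required a Benjamini-Hochberg adjusted p under 0.05, and a log2 fold change of a low gene is smaller on this scale than the ratio of its means. No label said how the mice of a group were housed or sampled, so the p-values measure the spread between these animals.

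High-fat feeding was accompanied by higher levels of 4 of the 7 tested members and lower levels of none in control mice. The 4 were *Krt23*, *Epcam*, *Cldn7* and *Prom1*, and the background was 14.5% of all tested genes called higher, 12.7% called lower and 27.2% called in either direction. The median log2 fold change was 0.93 over the 7 members and -0.0055 over all genes tested. *Krt7*, *Krt19* and *Sox9* did not pass the test.

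*Krt23* encodes a type I keratin that is scarce in healthy liver and is known to be induced by liver injury. It lies on chromosome 11 (99477974 to 99493137, minus strand, GRCm38), and its level was 0.655, 1.05 and 0.711 FPKM in the ND mice, 7.07, 10.9 and 3.52 in the control mice, 3.69, 6.77 and 7.37 in the HYA mice and 4.56, 5.90 and 6.68 in the LA mice. Every mouse on a high-fat diet was above every ND mouse, while the ranges of the 3 fat-fed groups overlapped. The mean was 0.804 ± 0.211 FPKM (SD, n = 3) in ND and 7.17 ± 3.70 in control mice, an 8.92-fold ratio of means. On the log2 scale the difference was 2.89 (SE 0.38, limma with Benjamini-Hochberg adjusted p = 0.000328), the largest among the 7 tested members, and it passed the test in all 22 alternatives tried. HYA mice and LA mice were likewise higher than ND mice, by 2.70 (adjusted p = 0.00123) and 2.69 (adjusted p = 0.000597) in the same limma fit. HYA differed from control by -0.19 (95% confidence interval -1.02 to 0.65) and LA from control by -0.20 (-1.03 to 0.64), neither past the threshold.

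*Epcam*, the cell adhesion molecule that marks cholangiocytes and hepatic progenitor cells and is absent from mature hepatocytes, lies on chromosome 17 (87635979 to 87651106, plus strand). Its level was 0.753, 0.988 and 0.955 FPKM in the ND mice, 2.62, 1.61 and 2.91 in the control mice, 0.809, 1.03 and 0.754 in the HYA mice and 2.41, 1.31 and 1.41 in the LA mice. Control and LA mice were all above the ND and HYA mice, whose ranges overlapped each other. The group means were 0.899 ± 0.127 in ND, 2.38 ± 0.685 in control, 0.863 ± 0.145 in HYA and 1.71 ± 0.611 in LA mice (FPKM, SD, n = 3). *Epcam* rose by 1.28 on the log2 scale in control against ND mice (SE 0.26, limma adjusted p = 0.00425).

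*Epcam* was also the single member called in HYA against control mice, where 0.482% of all tested genes were called lower and 0.952% in either direction. The difference was -1.33 (SE 0.26, 95% confidence interval -1.90 to -0.76, limma adjusted p = 0.0425), a ratio of means of 0.363. That call was not stable: it was lost in 13 of 22 alternatives, with adjusted p between 0.0137 and 0.168 when 1 mouse at a time was left out and 0.204 when only the 2 groups compared entered the fit, and of the single mice only control replicate 2 and LA replicate 1 could be left out without losing it. The log2 fold change stayed between -1.58 and -0.84 in all of them. The difference of HYA from LA mice was -0.87 (-1.44 to -0.30) and did not pass the test over all genes (limma adjusted p = 0.156) although the ranges did not overlap. The HYA and ND mice differed by -0.05 (-0.62 to 0.52).

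*Prom1* encodes a pentaspan membrane glycoprotein found on hepatic progenitor cells and at the apical surface of epithelia, and it lies on chromosome 5 (43993620 to 44102032, minus strand). Its level was 0.127, 0.132 and 0.186 FPKM in ND, 0.434, 0.254 and 0.444 in control, 0.194, 0.169 and 0.147 in HYA and 0.392, 0.209 and 0.369 in LA mice. The order of the groups was that of *Epcam* except at the bottom: control and LA mice were all above the ND and HYA mice. The difference of control from ND mice was 0.93 (SE 0.26, limma adjusted p = 0.0223). That call was lost in 6 of 20 alternatives, with adjusted p up to 0.0812. It was lost without ND replicate 1 or 2, without control replicate 1 or 3, with only the 2 groups compared and with a log2 fold change threshold of 1. In HYA mice *Prom1* was at 0.170 ± 0.0238 FPKM against 0.378 ± 0.107 in control mice (SD, n = 3). The difference of -0.80 (95% confidence interval -1.37 to -0.23) did not pass the test (limma adjusted p = 0.156), and that of HYA from LA mice was -0.62 (-1.19 to -0.05, adjusted p = 0.306).

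*Cldn7*, a claudin of epithelial tight junctions (chromosome 11, 69964779 to 69967885, plus strand), was at 0.117, 0.226 and 0.371 FPKM in ND, 0.764, 0.457 and 0.669 in control, 0.635, 0.198 and 0.561 in HYA and 0.795, 0.481 and 0.714 in LA mice. Control and LA mice lay above the ND range, and HYA mice spanned both, with HYA replicate 2 inside the ND range and HYA replicates 1 and 3 inside the control range. *Cldn7* rose by 1.16 in control mice (SE 0.38, limma adjusted p = 0.0451) and by 1.22 in LA mice (adjusted p = 0.0407), both against ND. The call in control mice was lost in 10 of 20 alternatives, among them the fits without ND replicate 1 or 2, control replicate 1 or 3, HYA replicate 3 or any 1 LA mouse, with adjusted p up to 0.146. HYA differed from control by -0.45 (95% confidence interval -1.29 to 0.39).

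**Figure D1:**
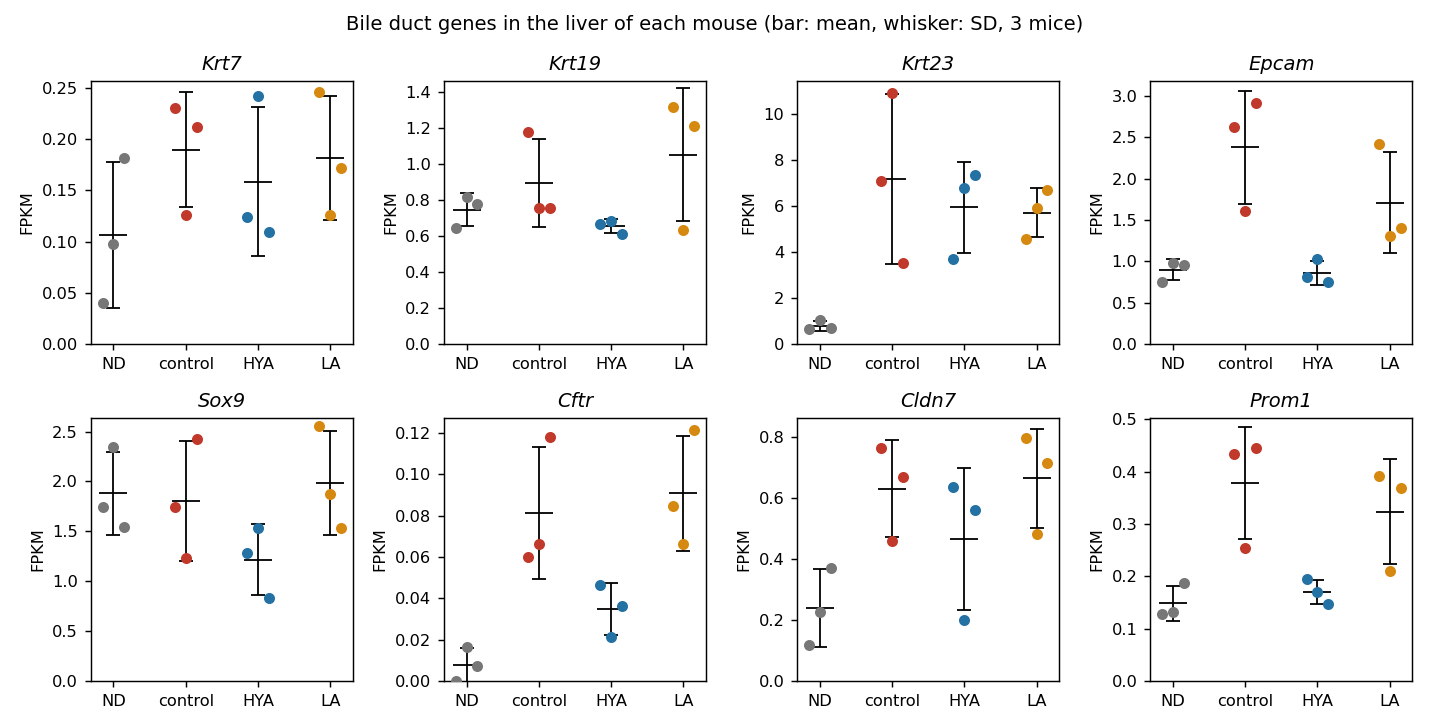
The level of each of the 8 genes in the liver of each mouse is plotted in FPKM for the 4 diet groups, with a bar for the group mean and whiskers for the SD of 3 mice. *Krt23* is low only in ND mice, whereas in *Epcam* and *Prom1* the HYA mice lie with the ND mice, below all control and LA mice.

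*Krt19* and *Krt7* are the type I and type II keratins that pair in the filaments of cholangiocytes and are the usual stains for bile ducts. *Krt19* (chromosome 11, 100140810 to 100148665, minus strand) was at 0.644, 0.815 and 0.780 FPKM in ND, 1.18, 0.757 and 0.755 in control, 0.667, 0.684 and 0.611 in HYA and 1.32, 0.632 and 1.21 in LA mice. Only control replicate 1 and LA replicates 1 and 3 stood above the rest, and the control range covered part of the ND range. The difference of control from ND mice was 0.21 (SE 0.25, 95% confidence interval -0.33 to 0.76). The HYA mice were all just below the control mice, at 0.654 ± 0.0384 against 0.897 ± 0.244 FPKM (SD, n = 3), with a difference of -0.38 (-0.92 to 0.17) that did not pass the test (limma adjusted p = 0.508).

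*Krt7* (chromosome 15, 101411043 to 101430313, plus strand) was at 0.0404, 0.0982 and 0.182 FPKM in ND, 0.231, 0.126 and 0.212 in control, 0.124, 0.243 and 0.109 in HYA and 0.246, 0.126 and 0.172 in LA mice. All groups overlapped. Control differed from ND mice by 0.53 (SE 0.33, 95% confidence interval -0.21 to 1.27), and HYA from control by -0.18 (-0.92 to 0.56). *Krt7* had 5 to 37 fragments per mouse, and the data do not separate the values inside these intervals. An antisense gene within the *Krt7* model had at most 2 fragments in any mouse. FPKM of *Krt7* and *Prom1* was also divided by gene models 1.72 and 1.96 times as long as the principal transcript. The ratio was 1.46 for *Cldn7*, 1.23 for *Cftr* and 1.18 for *Krt19*, against 1.00 for *Krt23*, *Epcam* and *Sox9*. A ratio above 1.00 lowers the level of a gene beside those of *Krt23*, *Epcam* and *Sox9*.

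*Sox9*, the transcription factor that marks the biliary lineage and ductular cells (chromosome 11, 112782224 to 112787760, plus strand), was at 1.75, 2.34 and 1.55 FPKM in ND, 1.74, 1.23 and 2.43 in control, 1.28, 1.53 and 0.832 in HYA and 2.55, 1.87 and 1.53 in LA mice. It was the member with the highest mean in ND mice, and the control and LA mice covered about the same range as the ND mice. The difference of control from ND mice was -0.09 (SE 0.28, 95% confidence interval -0.71 to 0.54). The sign turned under TPM scaling (0.14) and under voom on recovered fragments (0.10), where the median of all genes also stood at 0.21 and 0.18, so the value relative to that median stayed below it. All 3 HYA mice were below all ND mice, at 1.22 ± 0.356 against 1.88 ± 0.415 FPKM (SD, n = 3), but neither that difference, -0.61 (-1.23 to 0.02), nor that of HYA from control mice, -0.52 (-1.14 to 0.10), passed the test (limma adjusted p = 0.201 and 0.407).

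*Cftr*, the chloride channel that drives fluid and bicarbonate secretion into bile (chromosome 6, 18170687 to 18322768, plus strand), averaged 0.0537 FPKM and was not in the fit. Its fragments were 0, 2 and 1 in the ND mice, 10, 11 and 19 in the control mice, 7, 3 and 7 in the HYA mice and 14, 11 and 21 in the LA mice. The ND mice had at most 2 fragments each, the HYA mice lay between them and the other fat-fed mice, and control and LA mice overlapped. The count of 0 in ND replicate 1 allows a level of up to 0.0220 FPKM, taking 3 fragments as the most that a count of 0 allows. Counts were scaled per library as in the FPKM values. On that scale control mice had 10.8 times the ND level (exact 95% interval 3.43 to 54.5). LA mice had 12.1 times (3.90 to 61.0) and HYA mice 4.68 times (1.35 to 24.9) the ND level. HYA mice had 0.434 of the control level (0.231 to 0.783) and 0.386 of the LA level (0.207 to 0.685). These intervals hold the error of counting alone, without the variation from mouse to mouse. In a fit without the filter, *Cftr* was higher by 0.74 in control than in ND mice (limma adjusted p = 0.0132) and lower by a log2 difference of -0.42 in HYA than in control mice (adjusted p = 0.333).

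The LA diet gave no call among the 7 members against control mice, where 0% of the tested genes passed (lowest adjusted p over all genes 0.0564 by limma, with 535 genes but no member at an unadjusted p under 0.05, and 0 calls by voom). The largest member difference was -0.46 in *Epcam* (95% confidence interval -1.03 to 0.11), and the median was -0.04. These intervals are wide: for *Cldn7* the difference of 0.07 ran from -0.78 to 0.91. HYA and LA, which differ by the hydroxyl group and the lost double bond of HYA, gave no member call when compared directly (0.241% of all genes called), with a median difference of -0.56 over the 7 members. *Krt23* differed by 0.01 (-0.82 to 0.85) between HYA and LA mice. *Sox9* (-0.67, -1.30 to -0.05) and *Krt19* (-0.56, -1.10 to -0.01) had intervals below 0, as did *Epcam* and *Prom1*, but their adjusted p was between 0.156 and 0.340 in the limma fit.

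Against the ND mice, which serve as reference for 3 of these comparisons, the HYA mice had 1 member called higher (*Krt23*, with 6.49% of all genes called higher and 11.2% in either direction) and the LA mice 3 (*Krt23*, *Epcam* and *Cldn7*, with 12.6% and 23.4%). *Epcam* in LA mice was 0.82 above ND (SE 0.26, limma adjusted p = 0.0424), and *Prom1* 0.75 above ND (adjusted p = 0.0596). The LA calls of *Epcam* and *Cldn7* were lost in 14 of 22 and 8 of 20 alternatives. The HYA mice lay above the ND mice by 0.71 in *Cldn7* (95% confidence interval -0.14 to 1.55) and by 0.13 in *Prom1* (-0.45 to 0.70). The ranges of the mice did not overlap for 4 members in control against ND (20.3% of all genes higher), for 3 in HYA against control (9.93% lower) and for 2 in HYA against LA (10.8% lower), among the 7 members and 17016 genes tested.

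**Figure D2:**
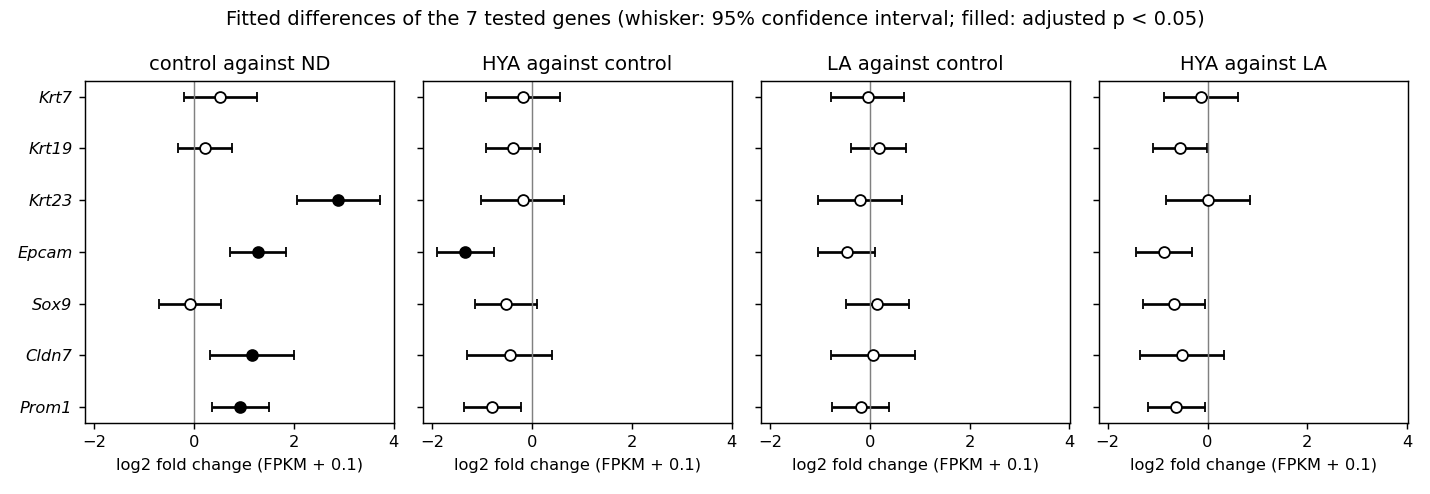
Points give the fitted log2 fold change of each of the 7 tested genes in 4 comparisons, whiskers the 95% confidence interval, and filled points an adjusted p under 0.05. *Krt23* stands apart in control against ND at 2.89, and in HYA against control only *Epcam* is filled, at -1.33.

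Within a diet group, most members varied together from mouse to mouse. With the group means removed, Pearson's r of log2(FPKM + 0.1) over the 12 mice was positive in 14 of the 15 pairs that did not include *Krt23*, with a median of 0.567 and a range of -0.111 to 0.795. *Epcam* and *Sox9* (0.795), *Epcam* and *Krt7* (0.781), *Krt19* and *Prom1* (0.742) and *Epcam* and *Prom1* (0.741) were at the top. *Krt23* ran the other way: 5 of its 6 pairs were negative, with a median of -0.410, such as -0.577 with *Prom1* and -0.560 with *Sox9*. The pairs share libraries and their depth, and the values are a description. How often other pairs of tested genes varied together was not tested.

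The mice behind this pattern were readily seen. Control replicate 2 was the lowest control mouse in 5 of the 7 members other than *Krt23*, and the highest in *Krt23*. LA replicate 2 was the lowest LA mouse in 6 of the 7, and LA replicate 1 the highest in 6. In the HYA group, replicate 3 was the lowest in 5 members and the highest in *Krt23*. ND replicate 1 was the lowest ND mouse in 6 of the 7 and also in *Krt23*. ND replicate 2 was the highest in 4 of the 7 and also in *Krt23*, so in the ND group *Krt23* did not run the other way.

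**Figure D3:**
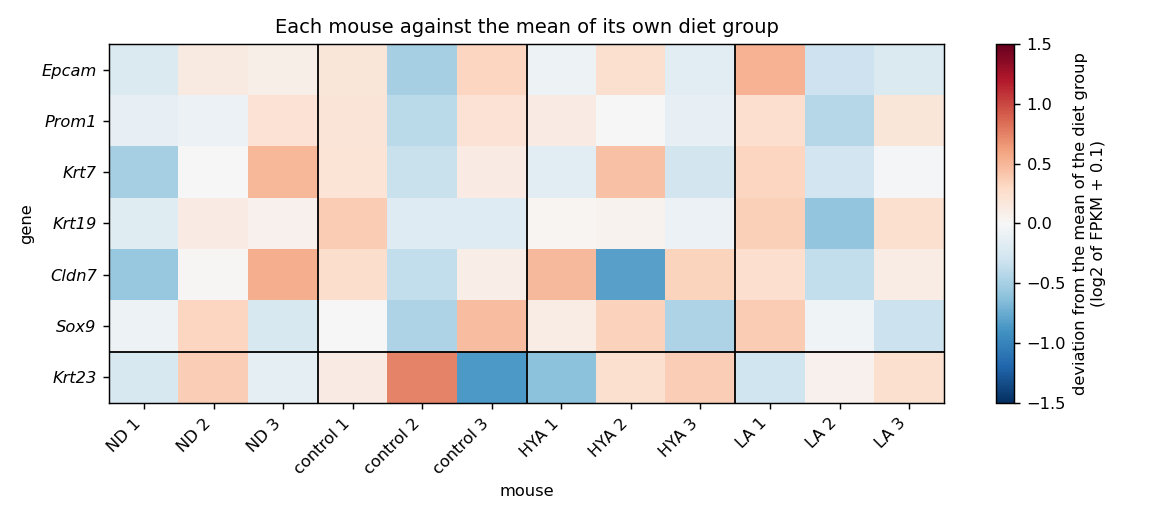
Each cell is the deviation of a mouse from the mean of its own diet group in log2(FPKM + 0.1), with genes in rows and the 12 mice in columns. Control 2 and LA 2 are below the means of their groups in every row above the line, and *Krt23*, below the line, is high in control 2 and low in control 3.

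The genes whose levels over the 12 mice were most like those of a member differed between *Krt23* and *Epcam*. For *Krt23*, the nearest genes by Pearson's r included *Themis* (0.988), *Fads2* (0.983) and *Camk2b* (0.981), and r was 0.903, 0.931 and 0.853 with the group means removed. *Fads2*, the delta-6 desaturase of polyunsaturated fatty acid synthesis, averaged 224 FPKM in ND and 1080 in control mice. *Themis*, a signalling protein known from thymocytes, averaged 0.157 FPKM in ND and 1.81 in control mice. For *Epcam* the nearest genes were *Trim47* (0.960), *Ppm1h* (0.942), *Gab2* (0.938) and *Nenf* (0.933). *Trim47* was at 1.85 FPKM in ND, 3.94 in control, 1.99 in HYA and 2.96 in LA mice.

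For *Sox9*, the nearest genes were *Lig4* (r = 0.918), *Arfgap3* (0.915), *Tnpo2* (0.910) and *Cc2d1a* (0.899), and for *Krt19* they were *Mir27a* (0.944), *Trabd2b* (0.886), *Cep78* (0.858) and *Itgb1* (0.856). *Mir27a* had 0 or 1 fragment per mouse, so its r carries no measurable level. *Itgb1*, an integrin beta chain, was between 52.2 and 54.1 FPKM in all group means.

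Other genes of cholangiocytes gave a broader view. Of 24 listed genes 21 were tested, and 11 rose and 1 fell in control against ND mice (median log2 fold change 1.06), beside 14.5% of all genes called higher and 12.7% lower. With only the 2 groups compared in the fit, 7 rose and 1 fell. *Spp1*, osteopontin, which biliary epithelium and also macrophages make, was at 16.0, 22.6 and 24.3 FPKM in ND, 166, 74.2 and 113 in control, 35.6, 41.6 and 50.1 in HYA and 128, 77.3 and 101 in LA mice. It rose by 2.43 with fat feeding (SE 0.28, limma adjusted p = 0.000162). *Wfdc2*, a secreted epithelial protein, was at 6.74, 5.96 and 4.64 FPKM in ND, 20.8, 19.0 and 21.3 in control, 11.1, 13.0 and 12.4 in HYA and 17.1, 18.6 and 13.7 in LA mice. It rose by 1.81 (adjusted p = 1.22e-05). *Pigr*, the receptor that carries immunoglobulin A into bile, was the listed gene that fell, from 546 ± 47.2 to 276 ± 34.9 FPKM (SD, n = 3), with a difference of -0.99 (SE 0.10, limma adjusted p = 7.77e-05). Its level was far above that of every member, and which liver cells gave it was not tested, so its fall cannot be assigned to bile ducts.

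The HYA mice stood above all ND mice and below all control and LA mice in *Wfdc2*. In HYA against control mice, 3 of the 21 tested cholangiocyte genes fell and none rose (median -0.51, against 0 over all genes, of which 0.482% were called lower). That count was 0 to 6 when 1 mouse at a time was left out (6 without control replicate 2, and 0 without any 1 HYA mouse, control replicate 1 or 3, ND replicate 2 or LA replicate 2). *Wfdc2* fell by 0.74 on the log2 scale (SE 0.14, limma adjusted p = 0.0413), *Tspan8*, a tetraspanin, by 1.40 (SE 0.27, adjusted p = 0.0413), and *Spp1* by 1.41 (SE 0.28, adjusted p = 0.0492). The calls of *Wfdc2*, *Tspan8* and *Spp1* were lost in 11, 12 and 13 of 22 alternatives, with no change of direction. *Pigr* was higher in HYA than in control mice by 0.51 (SE 0.10) just outside the threshold (limma adjusted p = 0.0501), and it passed with a pseudocount of 1, with a filter of 1 FPKM, under TPM scaling, under voom, with the replicate block and without control replicate 2. *Tspan8* was at 3.06, 2.12 and 2.78 FPKM in control and 0.939, 1.04 and 0.832 in HYA mice. LA gave no call in this list against control mice (median -0.11), nor did HYA against LA (median -0.26).

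**Figure D4:**
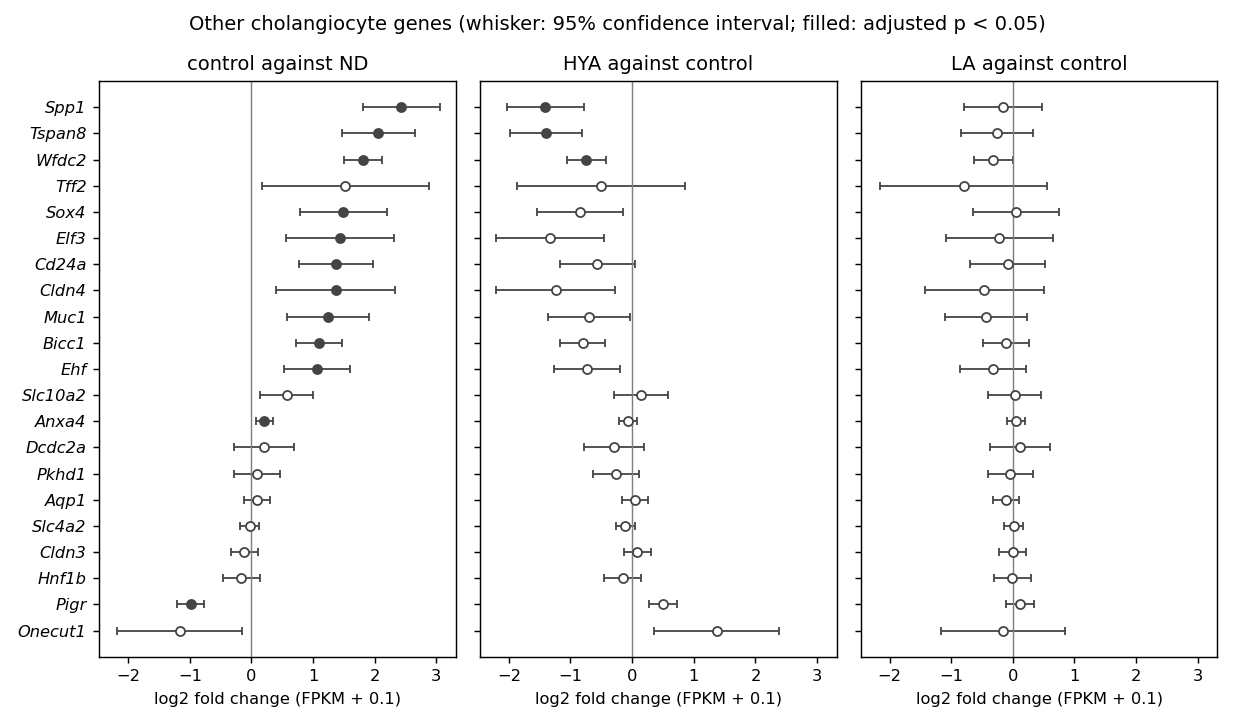
The fitted log2 fold change of 21 other cholangiocyte genes is shown for 3 comparisons with 95% confidence intervals, and filled points have an adjusted p under 0.05. Of these genes, 11 are filled to the right and *Pigr* to the left in control against ND, 3 are filled to the left in HYA against control, and none is filled in LA against control.

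Of 18 keratin and junction partners, all tested, 6 rose and 3 fell in control against ND (median 0.18, with 14.5% of all genes called higher and 12.7% lower). *Krt8* and *Krt18* form the filaments of hepatocytes and cholangiocytes alike. *Krt8* was at 127, 162 and 144 FPKM in ND, 304, 221 and 248 in control, 165, 166 and 187 in HYA and 281, 239 and 254 in LA mice, and rose by 0.83 in control mice (SE 0.12, limma adjusted p = 0.000693). *Cldn2*, a pore-forming claudin, rose by 0.41 (adjusted p = 0.0023), and *Dsg2*, a desmosomal cadherin, fell by 0.43 (adjusted p = 0.000855). Under TPM scaling 8 rose and none fell, under voom 7 rose and 1 fell, and without ND replicate 2 or control replicate 2 the number that fell was 1. HYA mice gave no call in this list, the nearest being *Krt8* (-0.57, limma adjusted p = 0.0573), *Krt18* (-0.51, 0.0708) and the membrane protease gene *St14* (-0.82, 0.108), all with ranges below the control mice. Under TPM scaling 2 and under voom 3 genes of this list fell in HYA mice.

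Notch and Hippo-YAP signalling direct hepatocytes and progenitors toward a biliary fate. Of 20 tested genes 9 rose and none fell in control against ND mice (median 0.62, with 14.5% of all genes called higher and 12.7% lower), among them the transcriptional co-activator *Wwtr1* (0.64, limma adjusted p = 0.000984), its DNA-binding partner *Tead1* (0.73, 0.00268) and the receptor tyrosine kinase and YAP target *Axl* (0.79, 0.00341). The 9 became 13 under TPM scaling and 6 without ND replicate 2, control replicate 1 or control replicate 3. None of the 20 was called in HYA or LA against control mice. The lowest p in HYA mice were those of *Ankrd1* (-1.05, adjusted p = 0.185), *Heyl* (-0.59, 0.188) and *Tead1* (-0.38, 0.197), by limma.

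Of the signals that surround a ductular reaction, 14 of 21 listed genes were tested, and 7 rose and 4 fell in control against ND mice (median 0.59, with 14.5% of all genes called higher and 12.7% lower). Under TPM scaling 8 rose and 1 fell, and the number that rose was 4 without control replicate 1, without LA replicate 3 and with only the 2 groups compared. *Tnfrsf12a*, the receptor for TWEAK that drives growth of progenitor cells, was at 3.39, 3.23 and 2.62 FPKM in ND, 12.2, 5.89 and 12.9 in control, 4.86, 4.11 and 4.02 in HYA and 13.7, 10.5 and 9.71 in LA mice. Its rise was 1.64 (SE 0.26, limma adjusted p = 0.000977), and the HYA mice lay below all control mice without passing the test (-1.16, adjusted p = 0.0624), although it passed in 6 of 22 alternatives, such as voom and TPM scaling. *Egfr*, the receptor for epidermal growth factor, fell by 1.84 (adjusted p = 0.00149), and the chemokine gene *Cxcl12* by 0.39 (adjusted p = 0.00263). No gene of this group was called in HYA or LA against control, with *Tgfb2* at -0.73 (adjusted p = 0.15) and the hepatocyte growth factor receptor gene *Met* at 0.24 (adjusted p = 0.248) in HYA mice.

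Markers of other cells moved as well. Mesothelial cells, which cover the liver and share *Krt7* and *Krt19* with ducts, had 8 listed markers whose summed level was 0.543 to 0.738 FPKM in ND, 0.960 to 1.32 in control, 0.859 to 1.61 in HYA and 1.00 to 1.76 in LA mice. Of the 4 tested, *Gpm6a* rose in control mice (0.62, limma adjusted p = 0.0365, a call lost in 10 of 20 alternatives), and *Cldn15* (0.80, adjusted p = 0.293) and *Msln* (0.44, 0.467) did not pass. None passed in HYA against control, where *Upk3b* differed by 0.55 (adjusted p = 0.702), and no listed mesothelial marker was at 0 in every mouse of a group. The part of mesothelium in the member values was not tested.

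Hepatocyte markers were at a lower summed level in fat-fed mice. Column totals were lower as well, at 342146 to 368132 FPKM in control against 407652 to 429286 in ND mice. The summed level of 8 markers was 40850 to 42120 FPKM in ND, 27450 to 31500 in control, 35100 to 36320 in HYA and 30220 to 30900 in LA mice, and no listed marker was at 0 in a group. In control against ND mice 6 of the 8 fell and none rose, where 12.7% of all genes were called lower, including the urea cycle enzyme gene *Cps1* (-1.47, limma adjusted p = 0.000155), the hepatocyte transcription factor gene *Hnf4a* (-0.55, 0.000692) and the transthyretin gene *Ttr* (-0.42, 0.007). With only the 2 groups compared 2 fell, 3 with no filter and 4 under TPM scaling. None was called in HYA against control, with *Apoa1* at 0.32, *Cps1* at 0.41 and *Apob* at 0.13, whose adjusted p was between 0.263 and 0.286. The part of this shift in the member values was not tested.

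Of 12 markers of pancreas and gut epithelium, which also express several members, 6 were at 0 in every mouse (*Cpa1*, *Ctrb1*, *Pnlip*, *Cdx1*, *Cdx2* and *Sis*). Summed levels were 69.3 to 89.9 FPKM in ND, 167 to 196 in control, 199 to 209 in HYA and 173 to 200 in LA mice, most of it from *Fabp2*, a fatty acid binding protein gene. Of 4 tested, *Fabp2* (1.34, limma adjusted p = 7.95e-06) and *Lgals4* (1.03, 0.00087) rose and *Cela1* (-1.11, 0.00117) fell in control against ND mice, and none was called in HYA against control.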

How the data were processed

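Liver RNA of 12 mice in 4 diet groups was sequenced, and samples were grouped by the labels. Per the labels and the submitters' processing notes, the authors used fastp, HISAT2 2.0.5 on GRCm38 and featureCounts 1.5.0-p3, and deposited FPKM per gene and mouse. The study's methods speak of TPM, but column totals differed between mice (342146 to 429286), so the values were treated as FPKM. The library factor of the deposited values did not follow the fragments on genes alone. Control replicate 1 and ND replicate 3 had 19558364 and 19595277 fragments on genes. In these mice 3 fragments of *Cftr* stood for 0.018 and 0.0215 FPKM. Median-ratio size factors gave 4623 calls in control against ND, beside 4625 in the main fit. How the authors set the factor was not tested.

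FPKM times gene length moved in steps of 1 fragment, and 100% of values were whole within 0.05, which gave the fragments per mouse (17169064 to 25220880).

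Differences were fitted with limma 3.58.1 in R 4.3.3 (trended variance, 1 fit over all mice) on log2(FPKM + 0.1) for the 17016 genes whose mean reached 0.1 FPKM, a filter kept low because biliary genes are scarce in whole liver. P-values were adjusted by Benjamini-Hochberg over all tested genes. *Cftr* was described by fragments, with exact intervals for the ratio of counts. Fits were tested on simulated data. Python 3.11.15 with pandas 2.3.3 and matplotlib 3.10.9 handled promoters and figures. Coordinates of 53462 of 54409 genes shared with GENCODE M21 were identical (98.26%), and those printed are the files'.

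The members and lists were chosen with earlier results of these data known. Named are all members, the 3 genes per list with the lowest p in control against ND and in HYA against control, and the 4 genes most correlated with *Krt19*, *Krt23*, *Epcam* and *Sox9*, of which 1 is not reported here. No columns of a pair of mice were identical, and r between mice of a group was 0.965 to 0.972. The lists were other cholangiocyte genes, keratin and junction partners, Notch and Hippo-YAP genes, niche signals, and markers of mesothelium, hepatocytes, pancreas and gut. Alternatives changed the pseudocount, filter, scaling, test and samples. Columns of another series were not present.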

Additional observations from a re-analysis of the deposited data

How the results depend on the processing

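Of 876 values of single members under the alternatives, 792 kept their direction and side of the threshold, 51 lost the call, 5 gained it and 28 changed sign. Applied later, after the data were seen, to genes named from the other lists, the same settings left 821 of 900 values as they were, 61 lost and 16 gained a call, and 2 changed sign (*Lgals4* in HYA against control, -0.20 to 0.0462 with 1 mouse left out). *Krt23* and *Epcam* in control against ND kept their calls in all 22 alternatives. Members called in control against ND numbered 2, not 4, with a filter of 1 FPKM, with a pseudocount of 1 and that filter, and with only the 2 groups compared, and 2 to 4 with 1 mouse left out (2 without ND replicate 1 or 2 or control replicate 1 or 3). With the 1 FPKM filter only 3 members were tested. In HYA against control the 1 call (*Epcam*) became 0 with no filter, with the replicate block and with only the 2 groups compared, and 0 to 1 with 1 mouse left out, where only leaving out control replicate 2 or LA replicate 1 kept it. In LA against ND 3 became 1 with only the 2 groups compared and 1 to 5 with 1 mouse left out (1 without ND replicate 1 or 2, control replicate 1 or LA replicate 1 or 3, and 5 without LA replicate 2). The cause was not tested.

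Replicate numbers showed no sign of pairing the mice: 0 of 18 same-number pairs had r above 0.1 after group means were removed (-0.109 to 0.0477, against -0.102 to 0.113 for other pairs), and 0 mice correlated best with their own number. The labels do not say whether mice of the same number shared a cage or batch, and these correlations cannot exclude it. With the replicate block, *Epcam* in HYA against control had adjusted p = 0.0504 and calls over all genes in that comparison were 336 in place of 162.

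Signs turned for small differences. Under TPM scaling and voom, *Sox9* in control against ND was 0.14 and 0.10, *Krt23* in HYA against LA -0.11 and -0.053, and *Epcam* in HYA against ND 0.0459 and 0.0098. With 1 mouse left out, LA against control ranged from -0.12 to 0.25 in *Cldn7*, -0.63 to 0.17 in *Krt23*, -0.21 to 0.10 in *Krt7*, -0.38 to 0.0355 in *Prom1* and -0.0797 to 0.38 in *Sox9*. HYA against LA ranged from -0.17 to 0.32 in *Krt23* and -0.36 to 0.0246 in *Krt7*, HYA against control from -0.62 to 0.19 in *Krt23*, HYA against ND from -0.17 to 0.0281 in *Epcam*, and *Sox9* from -0.32 to 0.14 in control and -0.12 to 0.23 in LA against ND.

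Over all genes, TPM scaling moved the median to 0.21 in control against ND and -0.12 in HYA against control, and the share of calls that were higher went from 53.2% to 85.4% and from 49.4% to 20.2% (voom 81.4% and 20.6%, TPM 21.7% and voom 23.4% from 46.3% in HYA against LA, TPM 80.5% and voom 75.6% from 57.8% in HYA against ND, TPM 86.8% and voom 82% from 53.8% in LA against ND). Calls in HYA against control were 162, and 259 with a filter of 1 FPKM, 72 with none, 310 with a pseudocount of 1 and that filter, 371 with TPM, 737 with voom, 54 with a fold threshold and 4 with only the 2 groups, and 1 to 555 with 1 mouse left out (1 without HYA replicate 2). In HYA against LA 41 became 8 with no filter, 69 with TPM, 308 with voom, 145 with the block, 22 with a fold threshold, 10 with the 2 groups and 0 to 162 with 1 mouse left out. A fold threshold gave 1275 in place of 4625 in control against ND (3069 with the 2 groups), 503 of 1909 in HYA against ND (1222 to 1973 with 1 mouse left out, 1222 without ND replicate 2 and 1265 without HYA replicate 2) and 1065 of 3985 in LA against ND. LA against control had 0 calls, and 0 to 7 under the alternatives. Depth limits *Cftr*, *Cldn7* and *Krt7* most.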
